A study of Mus musculus with 7 samples.

Results

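The extracellular matrix gene Ecm1, its neighbour Adamtsl4 and 6 further genes of the same stretch of mouse chromosome 3 (Tars2, Rprd2, Ensa, Golph3l, Prpf3 and Hormad1) were followed in naive CD4 T cells, the resting helper T cells of the spleen. These 8 genes were taken by symbol from the 34745 rows of the deposited table, and each symbol matched 1 row. Ecm1 and Adamtsl4 were chosen by their measured fold change, because their mRNA was far lower in the mutant mice, so their fall is described here and not tested. The other 6 are neighbours in the deposited loci, and the question put to them was how far along the chromosome the fall extends. The mutant group was 4 mice (GOF) heterozygous for a PIK3CD gain-of-function allele, a change in the gene for the p110delta catalytic subunit of phosphoinositide 3-kinase. Neither the substitution nor the way the allele was made is stated in the labels. The comparison group was 3 wild-type mice (WT). All 7 were male C57BL/6 mice aged 8 weeks, and the controls were littermates. Cells were isolated from the spleen by negative selection without culture, each library was made from total RNA, and the labels do not say that libraries were pooled from several mice.

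ECM1 is a secreted glycoprotein of the matrix. In mice it is known from T helper 2 cells, where it is needed for their exit from lymph nodes and acts through the interleukin-2 receptor and the egress receptor S1PR1. ADAMTSL4 is a secreted relative of the ADAMTS proteases that has no protease domain and binds fibrillin, and human mutations of it displace the lens of the eye. TARS2 charges the mitochondrial threonine tRNA, and RPRD2 belongs to a family that binds the C-terminal tail of RNA polymerase II. ENSA inhibits the phosphatase PP2A-B55 in the Greatwall pathway of mitotic entry. GOLPH3L binds phosphatidylinositol 4-phosphate at the Golgi, PRPF3 is a splicing factor of the U4/U6 snRNP, and HORMAD1 organises the chromosome axis in meiosis.

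On mm10 the members lay in the order Hormad1, Golph3l, Ensa, Adamtsl4, Ecm1, Tars2, Rprd2, Prpf3. Ecm1 (ENSMUSG00000028108) spans chromosome 3, 95734147 to 95739569, and Adamtsl4 (ENSMUSG00000015850) spans 95676201 to 95687917. Tars2 (ENSMUSG00000028107) runs between 95739976 and 95760206, and Rprd2 (ENSMUSG00000028106) between 95760341 and 95818863. Prpf3 (ENSMUSG00000015748) lies at 95830124 to 95855885, Ensa (ENSMUSG00000038619) at 95624993 to 95632102, Golph3l (ENSMUSG00000046519) at 95588934 to 95619247 and Hormad1 (ENSMUSG00000028109) at 95559677 to 95587671. In GENCODE M21 all 8 are protein-coding. Adamtsl4, Ecm1, Tars2, Rprd2 and Prpf3 are on the minus strand, and Hormad1, Golph3l and Ensa on the plus strand. The annotated genes Tars2 and Ecm1 are separated by 406 bases and Rprd2 and Tars2 by 134 bases, so that in the direction of transcription Rprd2 is followed by Tars2 and Tars2 by Ecm1. Adamtsl4 comes 46229 bases after Ecm1. Between Adamtsl4 and Ensa lies Mcl1, which is no member of the list but belongs to the same stretch. None of the 8 annotated genes overlaps another of them. Ecm1 hosts the microRNA gene Mir7014. Rprd2 overlaps 2 processed pseudogenes and an snRNA gene, and Golph3l overlaps the entry Gm42671, so counts of those hosts could include such reads.

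The 4 adjoining members with the lower mRNA are read in the same direction, and their falls ran from 39.5-fold (Ecm1) to 1.73-fold (Rprd2). Whether they share a cause was not tested, and their promoters are shown. Each is the 250 bases before the RefSeq start (GRCm38.p6), written 5′ to 3′ on the minus strand, and all 8 members matched the RefSeq promoter table. The motifs were chosen after the sequences had been seen. Capitals mark a TATA box (TATAAA) and an AP-1 motif (TGANTCA) in Ecm1, the KLF-type box CACCC in Adamtsl4 and the ETS-type motif CCGGAA in Tars2 and Rprd2, each searched on both strands.

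Ecm1, chr3:95739570-95739819: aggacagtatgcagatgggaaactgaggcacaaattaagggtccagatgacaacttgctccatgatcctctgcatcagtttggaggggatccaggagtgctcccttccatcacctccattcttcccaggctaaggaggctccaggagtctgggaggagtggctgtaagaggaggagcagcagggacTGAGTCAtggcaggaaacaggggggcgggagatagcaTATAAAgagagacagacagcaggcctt

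Adamtsl4, chr3:95687918-95688167: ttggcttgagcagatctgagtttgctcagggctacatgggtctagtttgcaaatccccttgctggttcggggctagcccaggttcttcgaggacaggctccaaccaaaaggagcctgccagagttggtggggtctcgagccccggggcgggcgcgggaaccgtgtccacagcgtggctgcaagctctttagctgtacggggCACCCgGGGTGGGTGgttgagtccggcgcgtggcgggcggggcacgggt

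Tars2, chr3:95754978-95755227: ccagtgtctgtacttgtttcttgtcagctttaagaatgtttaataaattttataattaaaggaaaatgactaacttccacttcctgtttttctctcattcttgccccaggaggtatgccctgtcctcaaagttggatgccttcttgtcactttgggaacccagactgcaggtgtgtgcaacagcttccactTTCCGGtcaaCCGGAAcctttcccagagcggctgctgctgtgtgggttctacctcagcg

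Rprd2, chr3:95818954-95819203: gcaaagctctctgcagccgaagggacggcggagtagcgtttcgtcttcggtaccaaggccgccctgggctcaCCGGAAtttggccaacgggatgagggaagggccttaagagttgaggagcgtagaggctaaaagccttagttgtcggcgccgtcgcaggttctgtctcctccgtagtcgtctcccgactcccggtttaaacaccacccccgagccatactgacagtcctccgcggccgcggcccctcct

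Ecm1 had 1 TATAAA, which begins 27 bases before the start and which 12.4% of the 32851 promoters in the table also hold. It had 1 TGANTCA, which 6.75% of promoters hold. Adamtsl4 had neither of these and had 3 matches of CACCC, some of which overlap. At least 1 CACCC was found in 52.0% of promoters. Tars2 had 2 matches of CCGGAA and Rprd2 had 1, against 12% of promoters with a match. The motif was not limited to genes with lower mRNA. Prpf3, which was not called, had 3 matches in its RefSeq window starting at 95855754 and 0 in the window starting at 95855886. Mcl1 had 2. Tars2 also had 1 TATAAA, 202 bases before its start, and Rprd2 had 1 CACCC, and these are left in lower case. The FOXO-type motif GTAAACA was found in none of the 8 members' windows and in 3.17% of all promoters. The windows also differed in composition, with 1 CpG in Ecm1, 17 in Adamtsl4, 4 in Tars2 and 23 in Rprd2, against a median of 6 over the table. The GC box GGGCGG, also left in lower case, was found in 3 of the 4, with 1 match in Ecm1, 2 in Adamtsl4 and 1 in Rprd2, against 32.7% of promoters with a match. The RUNX-type TGTGGT (14% of promoters) and CCAAT (33.8%) were found in none of the 4. None of the 8 motifs searched was found in all 4. The RefSeq start of Tars2 lies inside the longer span that GENCODE gives the gene. Counted from that start, the gap to the annotated Rprd2 is wider than the 134 bases given above. These matches describe letters and not sites of binding.

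The GOF libraries held 14945520 to 16293539 counts and the WT libraries 14497957 to 15015783. The test was edgeR's quasi-likelihood F test on the counts of all 12668 genes that passed its expression filter, with Benjamini-Hochberg adjustment over all of them and a gene called at an adjusted p under 0.05. Of all tested genes 14.5% were called lower and 16.8% higher in GOF, 1838 and 2130 genes. In limma on log2(FPKM + 1) the split was 1390 lower and 2598 higher. Every GOF library lay below every WT library in CPM for 18.2% of tested genes, and above for 21.5%. Levels per library are CPM, the count scaled to the library's TMM-adjusted total. Levels compared between genes are the deposited FPKM, which also divides by a length fixed per gene. That length came to 6805 bases for Aph1a, which spans only 95893969 to 95898288, so it can exceed the whole gene. Orders, ranks and ratios of FPKM between genes depend on it. CD4 T cell markers were present throughout, with a summed level of 8 markers of 6850 to 7510 CPM in GOF and 5180 to 5370 CPM in WT. Of the markers of naive cells, Il7r averaged 449.7 ± 48.6 CPM in GOF and 906 ± 239.8 CPM in WT, and Lef1 801 ± 90.7 CPM in GOF and 1012 ± 106 CPM in WT (SD, n = 4 and n = 3), both called lower (edgeR adjusted p = 0.00211 and 0.048), while Ccr7 was not called (log2 fold change -0.20, adjusted p = 0.144). Il7r and Lef1 fell in the same libraries as Ecm1 and Adamtsl4, and their part in that fall was not tested. Markers of other cells were higher in GOF. Of 12 macrophage and monocyte markers 11 were called higher, and their summed level was 461, 147, 501 and 172 CPM in GOF replicates 1 to 4, against 44.1 to 81.9 CPM in WT. Of 9 tested neutrophil markers 8 were higher, at 58.1 to 203 CPM in GOF and 0.482 to 8.12 CPM in WT, where Camp and Ly6g had no count. B cell markers were higher for 6 of 10 (106 to 201 CPM in GOF, 31.0 to 101 in WT), NK and CD8 T cell markers for 6 of 8 (111 to 157 and 57.8 to 69.6 CPM) and red blood cell genes for 4 of 6 (18.8 to 70.4 and 4.18 to 18.5 CPM). Of 4 tested stroma and endothelium genes, 1 (Pecam1) was lower, and the list summed to 191 to 266 CPM in GOF and 364 to 425 CPM in WT. GOF replicates 1 and 3 were highest for most of these lists and are left out below as a check. In bulk RNA, fewer cells that make a transcript and less of it per cell cannot be told apart.

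Ecm1 mRNA was at 73.2, 67.2, 66.6 and 80.3 CPM in the 4 GOF libraries, against 3045, 3467 and 1999.8 CPM in the 3 WT libraries. Every GOF library lay far below every WT library, and the GOF values were close together while the WT values were spread over a wider range. The means were 71.8 ± 6.39 CPM in GOF (SD, n = 4) and 2837 ± 755 CPM in WT (SD, n = 3). The fitted level was 39.5-fold lower in GOF, or -5.30 ± 0.19 (SE) in log2 fold change. Per length the mean was 15.3 FPKM in GOF and 572 FPKM in WT. In WT this placed Ecm1 at rank 62 from the top among the tested genes, and in GOF at rank 3038. The transcript took 0.0075%, 0.0069%, 0.0068% and 0.0082% of all counts in the GOF libraries and 0.292%, 0.335% and 0.196% in the WT libraries. Each GOF library still held 1053 to 1249 Ecm1 counts.

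Adamtsl4 was at 7.42, 9.39, 6.98 and 9.39 CPM in GOF libraries, against 160.3, 175 and 117 CPM in WT libraries. The groups did not overlap. The fitted level was 18.1-fold lower in GOF, or -4.18 ± 0.18 (SE) in log2 fold change. The mean was 1.49 ± 0.227 FPKM in GOF (SD, n = 4) and 25.6 ± 4.97 FPKM in WT (SD, n = 3). In limma on log2(FPKM + 1), where the added 1 weighs on the low GOF values, the log2 fold change was -3.40. Ecm1 mRNA exceeded that of Adamtsl4 in every library, with a ratio of FPKM of 8.48 to 11.7 in GOF and 20.3 to 23.5 in WT. Within WT both genes were highest in replicate 2 and lowest in replicate 3. Of the 12668 log2 fold changes, that of Ecm1 was the 12th and that of Adamtsl4 the 26th from the most negative. Without GOF replicates 1 and 3 the log2 fold changes were -5.27 and -4.01. The 2 GOF libraries then left had 147 and 172 CPM of macrophage and monocyte markers, still above the 44.1 to 81.9 CPM in WT.

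**Figure D1:**
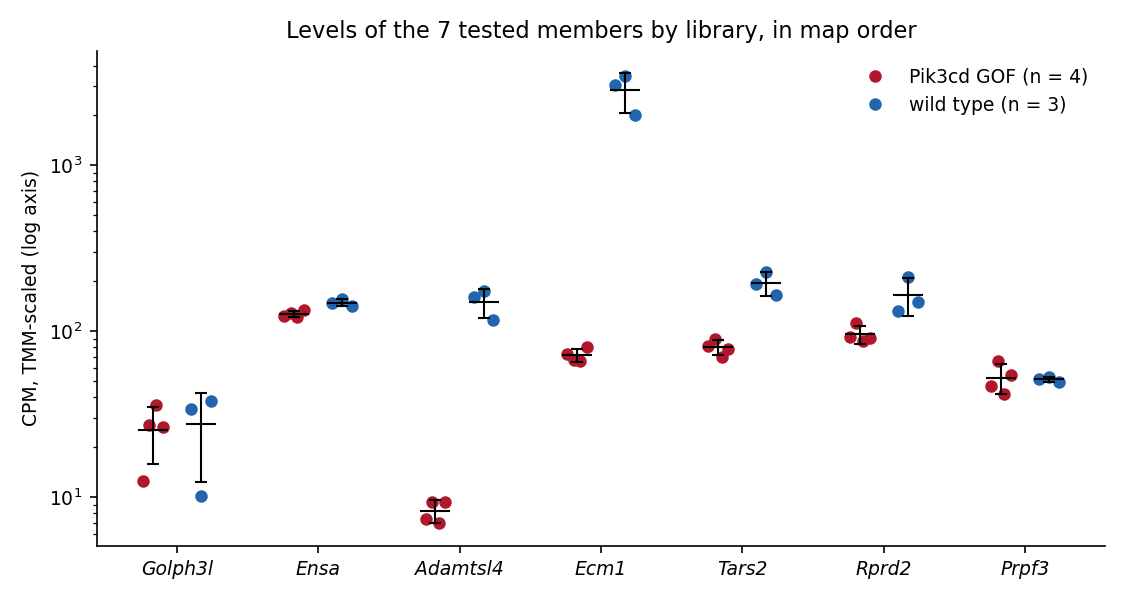
CPM (log axis) of the 7 members that passed the expression filter, in map order, with 1 point per library, a dash for the group mean and bars for the SD (4 GOF and 3 WT libraries). The GOF points of Adamtsl4, Ecm1, Tars2 and Rprd2 lie below all WT points, those of Ensa lie just below, and those of Golph3l and Prpf3 overlap.

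Tars2, the gene just before Ecm1 in the direction of transcription, was also lower. It was at 82.1, 89.9, 69.95 and 78.3 CPM in GOF libraries, against 192, 228 and 165 CPM in WT libraries. All GOF values lay below all WT values. Its log2 fold change of -1.28 ± 0.13 (SE) stands for a 2.43-fold lower level (edgeR adjusted p = 0.00012; 95% interval on the log2 scale -1.57 to -0.996). Its mean was 7.88 ± 0.831 FPKM in GOF (SD, n = 4) and 18.2 ± 2.86 FPKM in WT (SD, n = 3). Like Ecm1 and Adamtsl4 it was highest in WT replicate 2 and lowest in WT replicate 3. Ecm1 was at 1.62 to 2.22 times the FPKM of Tars2 in GOF libraries and at 26.3 to 34.3 times in WT libraries, so the fall of Tars2 was much the smaller.

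Rprd2, the next gene, was lower by a smaller amount. It was at 92.4, 112, 87.1 and 90.9 CPM in GOF libraries, against 133, 214 and 150.2 CPM in WT libraries. The groups did not overlap, with GOF replicate 2 nearest to WT replicate 1. Its log2 fold change was -0.79 ± 0.16 (SE), a 1.73-fold lower level (edgeR adjusted p = 0.00635; 95% interval -1.16 to -0.42). Without GOF replicates 1 and 3 it was -0.71 and was no longer called (adjusted p = 0.0601), and over all alternatives the adjusted p ran from 6.68e-05 to 0.0601.

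Prpf3, on the far side of Rprd2, was at 47.1, 66.6, 42.1 and 54.7 CPM in GOF libraries, against 51.4, 53.3 and 49.6 CPM in WT libraries. The WT values lay inside the range of the GOF values. Prpf3 had a difference of 0.03 ± 0.15 (SE) on the log2 scale (edgeR adjusted p = 0.889), and its 95% interval of -0.31 to 0.38 does not reach the size seen in Rprd2. The gap between the annotated Rprd2 and Prpf3 is 11260 bases. The unbroken stretch of called genes thus ended at Rprd2 on this side, though called genes recur farther out, as given for Anp32e and Plekho1.

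On the other side, Ensa was at 124, 129, 121 and 134 CPM in GOF libraries, against 148, 157 and 142 CPM in WT libraries. All GOF values lay below all WT values by a small margin. On the log2 scale the difference was -0.23 ± 0.08 (SE), which did not pass (edgeR adjusted p = 0.0511; 95% interval -0.41 to -0.05), and DESeq2 called it (adjusted p = 0.0305). The call of Ensa therefore depended on the tool, and its interval lies well short of a 2-fold change. Golph3l was at 12.5, 27.2, 35.7 and 26.4 CPM in GOF libraries, against 34.1, 10.2 and 38.2 CPM in WT libraries. Its low libraries were GOF replicate 1 and WT replicate 2, and the groups overlapped. Golph3l differed by -0.11 ± 0.45 (SE) on the log2 scale (edgeR adjusted p = 0.878), and the 95% interval of -1.12 to 0.90 leaves room for a change of either sign of about 2-fold.

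Hormad1 was all but absent. It had 1 count, in GOF replicate 3, and none in the other 6 libraries, so it did not pass the expression filter and no fold is given. Among 4 tested genes of the meiotic chromosome axis 1 was called higher and 0 lower, beside 16.8% and 14.5% of all tested genes. With so few genes nothing is read from that share. The higher gene was Rec8, a meiotic cohesin subunit, at 6.47 ± 0.726 CPM in GOF and 1.68 ± 0.697 CPM in WT (SD, n = 4 and n = 3; edgeR adjusted p = 0.0015).

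Of the 7 tested members 4 were called lower and 0 higher, beside 14.5% and 16.8% of all tested genes, and since 2 of them were chosen for their fall nothing is read from that share. By mean FPKM the order in GOF was Ensa (19.2), Ecm1 (15.3), Tars2 (7.88), Rprd2 (7.42), Prpf3 (6.37), Golph3l (1.98) and Adamtsl4 (1.49). In WT it was Ecm1 (572), Adamtsl4 (25.6), Ensa (21.3), Tars2 (18.2), Rprd2 (12.2), Prpf3 (5.90) and Golph3l (2.03). In GOF the ranges of Tars2, Rprd2 and Prpf3 overlapped, as did those of Golph3l and Adamtsl4. In WT those of Adamtsl4, Ensa and Tars2 overlapped, and so did those of Tars2 and Rprd2. By FPKM Ecm1 thus stood above every other member in WT and between Ensa and Tars2 in GOF. By mean CPM it was also highest in WT. In GOF, Ensa (127 CPM), Rprd2 (95.7 CPM) and Tars2 (80.0 CPM) all lay above Ecm1 (71.8 CPM).

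Mcl1, the protein-coding gene between Ensa and Adamtsl4, encodes an anti-apoptotic BCL2 family protein that lymphocytes need to survive. It was at 770.2, 913, 753 and 927 CPM in GOF libraries, against 1889, 1860.1 and 1724 CPM in WT libraries. The groups lay far apart. Mcl1 differed by -1.12 ± 0.10 (SE) on the log2 scale (edgeR adjusted p = 7.29e-05; 95% interval -1.34 to -0.89). Mcl1, Adamtsl4, Ecm1, Tars2 and Rprd2 formed 5 tested genes in a row that were all lower, and the tested genes at either end, E330034L11Rik and Prpf3, were not called. The run was looked for after its genes had been seen, and 2 of the 5 were chosen for their fall, so its length is a description. The same 5 genes formed the run in 16 of 17 alternatives, while without GOF replicates 1 and 3 it ended before Rprd2.

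**Figure D2:**
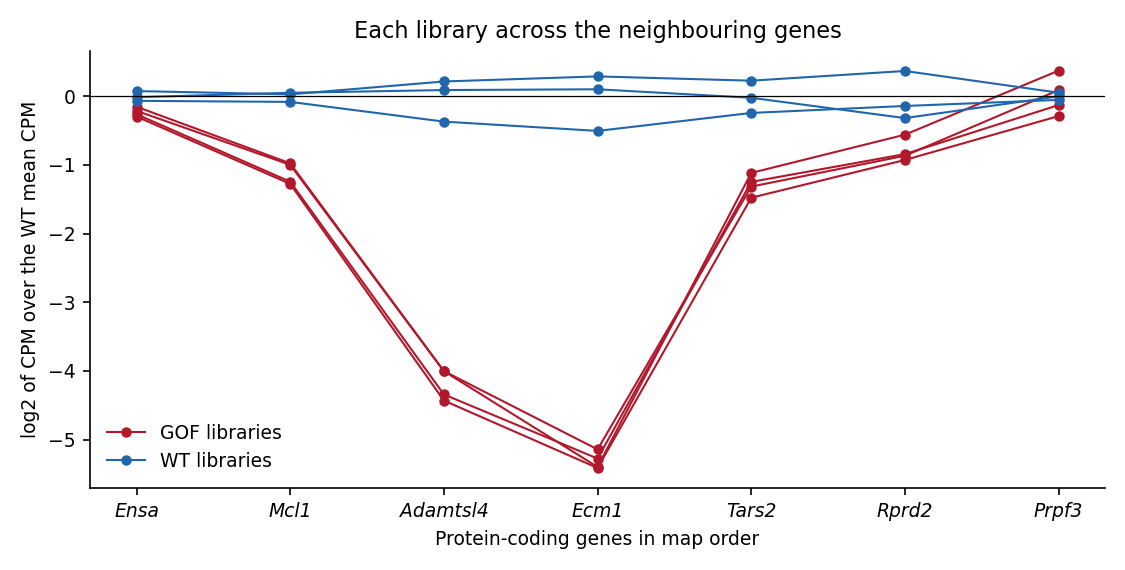
The log2 ratio of each library's CPM to the WT mean for 7 protein-coding neighbours in map order, with 1 line per library (4 GOF, 3 WT). The GOF lines start just below the WT lines at Ensa, are lowest at Adamtsl4 and Ecm1, come part of the way back at Tars2 and Rprd2 and overlap the WT lines at Prpf3.

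To see the wider stretch, all rows were taken whose midpoint lies within 0.25 Mb or 1 Mb of the midpoint of Ecm1, by position alone. Within 0.25 Mb 17 genes other than Ecm1 and Adamtsl4 were tested, of which 4 were called lower (23.5%) and 1 higher (5.88%), beside 14.5% and 16.8% of all tested genes. Besides Tars2, Rprd2 and Mcl1 the lower one was Anp32e, a histone chaperone that removes H2A.Z. It was at 137, 103, 119 and 109 CPM in GOF libraries and at 199, 162 and 183 CPM in WT libraries, without overlap (log2 fold change -0.63, SE 0.12, edgeR adjusted p = 0.00388). The 1 higher gene was Ctss, the lysosomal protease cathepsin S of antigen-presenting cells, at 309.9, 252, 316 and 289 CPM in GOF libraries and 226, 207 and 190.5 CPM in WT libraries (log2 fold change 0.49, SE 0.10, edgeR adjusted p = 0.00671). It was highest in GOF replicates 1 and 3, as were the macrophage markers, and its call was lost without those libraries (log2 fold change 0.37, adjusted p = 0.0810). That fit used fewer samples, and calls over all tested genes fell from 3968 to 2124 in it. The part of macrophages in the value was not tested.

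Of the 12 tested genes within 0.25 Mb that were not called, 3 are the members Ensa, Golph3l and Prpf3, and the other 9 were Ctsk, Hmgb1-ps5, E330034L11Rik, Mrps21, C920021L13Rik, Ciart, BC028528, Aph1a and Gm43375. Among those 9 Aph1a, a subunit of gamma-secretase, had the lowest edgeR adjusted p (0.0611), with -0.33 on the log2 scale. Mrps21, a mitochondrial ribosomal protein, had 0.12 (adjusted p = 0.645), and Ciart, a repressor of the circadian clock, had -0.73 (adjusted p = 0.0846). Gm43375 lies wholly inside Anp32e and Hmgb1-ps5 wholly inside Ctss, each on the strand of its called host, so these entries may not be independent neighbours. Aph1a overlaps Car14 on the opposite strand, and Ciart overlaps the antisense gene C920021L13Rik. Whether counting used strand is not given, so reads of such pairs may be shared.

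Between 0.25 and 1 Mb 8 of 56 tested genes were called lower (14.3%) and 2 higher (3.57%). The lower share is close to the 14.5% of all tested genes, while the higher share is below their 16.8%. Plekho1, a pleckstrin homology domain protein, lay just outside the inner window and was the clearest of them, at 20.7, 20.8, 20.9 and 19.5 CPM in GOF libraries and 64.8, 46.4 and 43.2 CPM in WT libraries. The GOF values were nearly equal and the groups did not overlap (log2 fold change -1.33, SE 0.15, edgeR adjusted p = 0.00022). Sema6c, a transmembrane semaphorin, averaged 2.24 ± 0.715 CPM in GOF and 8.11 ± 1.67 CPM in WT (SD, n = 4 and n = 3), which is -1.85 on the log2 scale (edgeR adjusted p = 0.00182). Tnfaip8l2, an inhibitor of immune receptor signalling known as TIPE2, averaged 62.0 ± 10.4 CPM in GOF and 107 ± 9.67 CPM in WT, which is -0.79 on the log2 scale (edgeR adjusted p = 0.00268). Prune, a phosphodiesterase, had -0.60 (adjusted p = 0.0132), and that call was lost without GOF replicates 2 and 4 (adjusted p = 0.0723).

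The remaining calls between 0.25 and 1 Mb were less firm. On the log2 scale Arnt, the partner of the hypoxia-inducible factors, differed by -0.59 (edgeR adjusted p = 0.0375), the non-coding 4930481B07Rik -1.17 (0.0261), the deubiquitinase gene Fam63a -0.38 (0.0276) and the splicing gene Scnm1 -0.32 (0.0389). Vps45, which acts in vesicle fusion, was higher with 0.73 (adjusted p = 0.0294). The calls of Arnt, 4930481B07Rik and Vps45 were each lost without GOF replicate 1, 3 or 4 or WT replicate 2 or 3, that of Fam63a without GOF replicate 2, 3 or 4 or WT replicate 2 or 3, and that of Scnm1 without any library but WT replicate 3. Their highest adjusted p on leaving out 1 library was 0.118 for Arnt, 0.0854 for 4930481B07Rik, 0.075 for Vps45, 0.0754 for Fam63a and 0.108 for Scnm1. Fcgr1, the high-affinity IgG receptor of myeloid cells, was higher, at 3.25, 1.34, 3.85 and 1.22 CPM in GOF libraries, against 0.359, 0 and 0 CPM in WT libraries. The log2 fold change of 4.27 (edgeR adjusted p = 0.00982) rests on 5 counts of 1 WT library, WT replicate 1; with that library left out the fit gave 8.22 against a group at 0, a value that depends on the prior count. Fcgr1 too was highest in GOF replicates 1 and 3, and without them, in a fit on fewer samples, it did not pass (adjusted p = 0.0845).

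**Figure D3:**
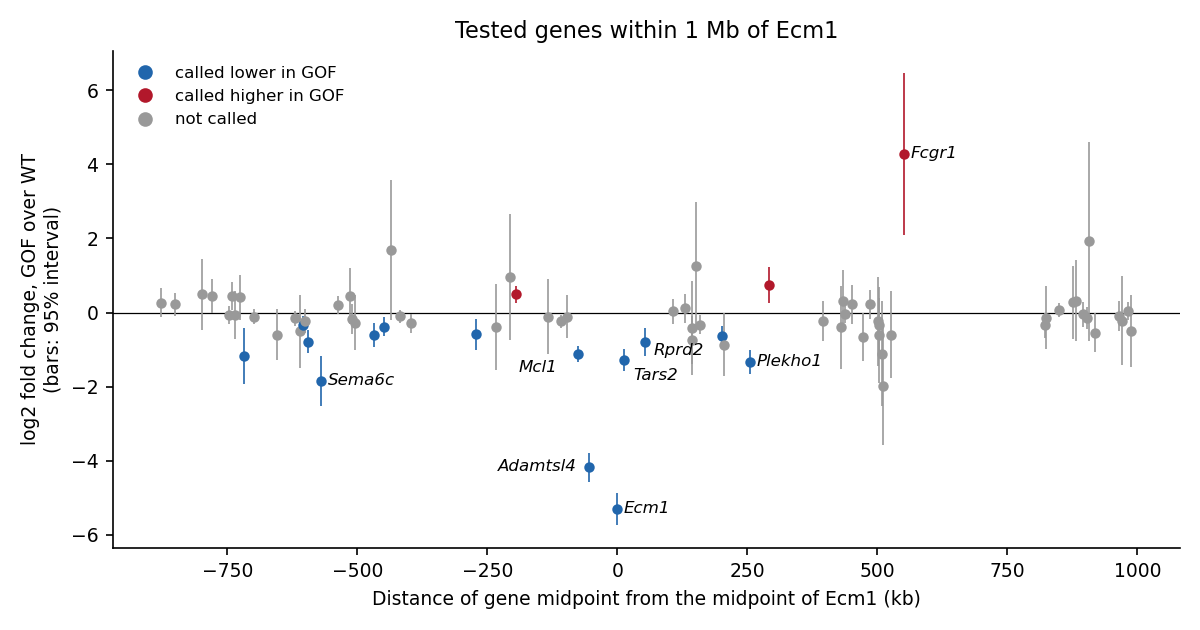
Log2 fold change (GOF over WT) with its 95% interval for every tested gene within 1 Mb of Ecm1, against the distance of its midpoint from that of Ecm1 in kb. Ecm1 and Adamtsl4 lie at -5.30 and -4.18, and every other called gene but Fcgr1 lies between -1.85 and 0.73.

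Within 1 Mb, Ecm1 and Adamtsl4 left out, 12 of 73 tested genes were lower (16.4%) and 3 higher (4.11%), with a median log2 fold change of -0.18 against 0.01 over all tested genes. In limma on quantile-normalized values the counts were 18 lower and 4 higher. Without WT replicate 2 they were 10 lower and 6 higher, and without GOF replicates 1 and 3 they were 7 lower and 0 higher. Between 1 and 2 Mb 2 of 14 tested genes were lower and 3 higher. Over the rest of chromosome 3 74 of 539 were lower (13.7%) and 87 higher (16.1%). The share called lower within 1 Mb was thus near that of all tested genes. Of the 17 genes tested within 0.25 Mb, Ecm1 and Adamtsl4 left out, 2 were called and at least 2-fold lower, Mcl1 and Tars2. The same held for 4.07% of all tested genes.

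**Figure D4:**
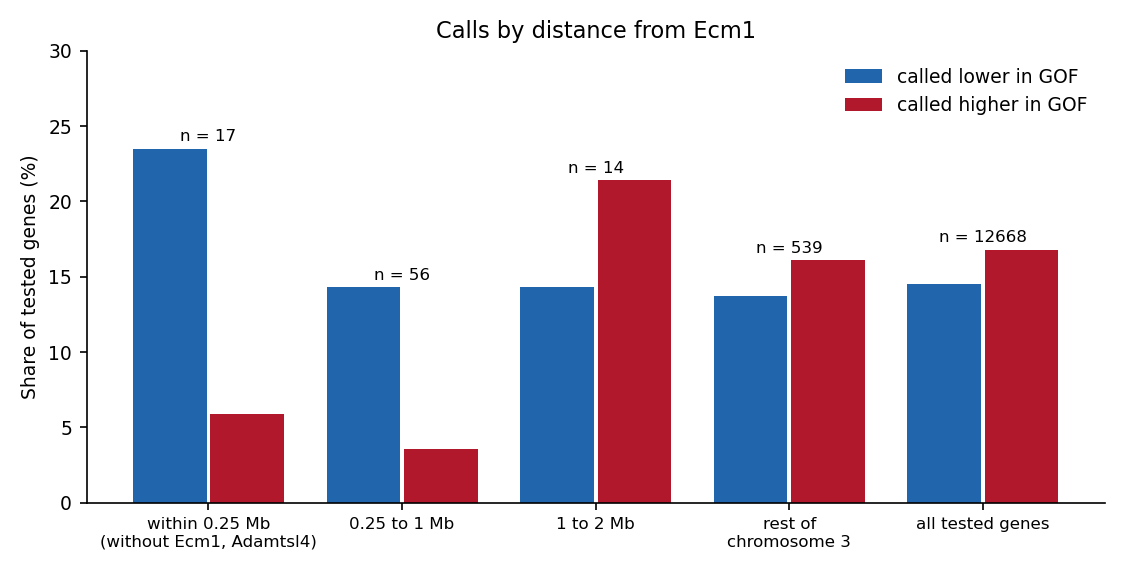
Share of tested genes called lower or higher in GOF by distance from Ecm1, with the number tested above each pair of bars. Within 0.25 Mb, Ecm1 and Adamtsl4 left out, 23.5% of 17 genes were called lower, against 14.5% of all 12668.

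The genes outside this stretch whose pattern was most like that of Ecm1 were found by the root mean square difference over the 7 libraries between log2(CPM + 1) profiles, each centred on its WT mean. Nearest to Ecm1 were Map6, a microtubule-stabilising protein (difference 0.396), Gm14085 (0.445), the motor protein gene Myo6 (0.602), the lysophosphatidylserine receptor Gpr34 (0.773) and the chemokine Ccl22 (0.892). Map6 averaged 1.23 ± 0.365 CPM in GOF and 76.1 ± 17.4 CPM in WT (SD, n = 4 and n = 3). Nearest to Adamtsl4 were the zinc transporter Slc30a4 (0.251), the laminin chain Lama5 (0.293), the G1 kinase Cdk6 (0.350), the guanylate cyclase subunit Gucy1a3 (0.368) and the activin receptor Acvr1c (0.413). Slc30a4 averaged 16.9 ± 0.648 CPM in GOF and 310 ± 31.7 CPM in WT. Ecm1 and Adamtsl4 differed from each other by 0.942 on this measure. The 5 nearest genes were picked as the smallest differences among the tested genes elsewhere, so nothing is read from their being nearer. By the rule none of the 10 lies within 1 Mb, and 9 of them are on other chromosomes, while Gucy1a3 is on chromosome 3. Lama5 and Acvr1c had GOF means of only 0.257 and 0.288 CPM, where the added 1 shrinks the difference. It also weighs on Map6, Ccl22 and Gucy1a3, with GOF means of 1.23, 1.32 and 1.47 CPM. The fitted log2 fold change of Map6 was -5.94, against -5.30 for Ecm1.

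Of 9 tested matrix genes related to ECM1 and ADAMTSL4 5 were called higher and 1 lower, beside 16.8% and 14.5% of all tested genes. Their median log2 fold change was 1.65, and the other 15 of the 24 genes were too low to test. Mmp9 (4, 1 and 0 counts in WT replicates 1 to 3), Adamtsl2 (7, 10 and 0) and Adamts17 (5, 2 and 4) passed the expression filter through the GOF libraries. Nothing is therefore read from that share or median. Adamts14, a procollagen N-propeptidase, averaged 33.8 ± 2.41 CPM in GOF and 2.99 ± 0.517 CPM in WT (SD, n = 4 and n = 3; log2 fold change 3.49, edgeR adjusted p = 2.52e-06). Mmp9, a gelatinase of neutrophils and macrophages that binds ECM1, was at 6.99 ± 1.60 CPM in GOF and 0.119 ± 0.150 CPM in WT. Lamb3, a laminin chain, was the 1 lower gene, at 2.97 ± 0.821 CPM in GOF and 14.2 ± 4.07 CPM in WT (log2 fold change -2.25, edgeR adjusted p = 0.00042). Markers of neutrophils and macrophages rose in the same libraries, and their part in Mmp9 was not tested.

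Genes that the mouse work on ECM1 in helper T cells connects with it went both ways, with 6 of 13 lower and 3 higher, beside 14.5% and 16.8% of all tested genes, and a median of -0.48. Il4ra, the interleukin-4 receptor alpha chain, averaged 441 ± 36.6 CPM in GOF and 1278 ± 112 CPM in WT (SD, n = 4 and n = 3). S1pr1, the receptor for egress along sphingosine 1-phosphate, averaged 449 ± 31.9 CPM in GOF and 909 ± 63.1 CPM in WT (log2 fold change -1.02, edgeR adjusted p = 5.6e-05). Il2rb, the interleukin-2 receptor beta chain, was higher at 131 ± 6.62 CPM in GOF and 87.0 ± 4.27 CPM in WT (log2 fold change 0.59, edgeR adjusted p = 0.00094).

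Lists of genes that work with each neighbour, the member itself included, are set beside the 14.5% lower and 16.8% higher of all tested genes. Among 19 mitochondrial and threonyl tRNA synthetases 4 were lower and 3 higher, with a median of 0.04. Tars2 had the lowest adjusted p of the 19. Tars, its cytosolic counterpart, differed by -0.49 (edgeR adjusted p = 0.0136) and Sars2, the mitochondrial seryl enzyme, by 0.85 (0.00411). Of 16 regulators of the RNA polymerase II tail 3 were lower and 0 higher, with a median of -0.10. Beside Rprd2 these were the phosphatases Ctdp1 (-0.54, adjusted p = 0.00317) and Ctdsp1 (-0.37, adjusted p = 0.0127). In the Greatwall pathway of Ensa 2 of 11 tested genes were higher, the mitotic kinase Cdk1 (log2 fold change 2.93, edgeR adjusted p = 0.00046) and its cyclin Ccnb1 (1.77, 0.0242), and 0 were lower. Of 13 Golgi genes of phosphatidylinositol 4-phosphate 1 was higher, Myo18a (1.17, adjusted p = 0.0002), a GOLPH3-binding myosin, and 1 lower, the lipid kinase Pi4ka (-0.49, adjusted p = 0.00359). Of 23 tri-snRNP genes 2 were higher and 2 lower, among them Lsm6 (0.70, adjusted p = 0.00226), Ppih (1.02, 0.0195) and Prpf6 (-0.35, 0.0161). Of all tested genes 31.3% were called in either direction, and nothing is read from the shares of these short lists.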

How the data were processed

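RNA of naive CD4 T cells from 4 GOF and 3 WT mice was measured by paired-end sequencing. The table deposited by the authors holds, for every gene, a raw count and an FPKM value in each library. Per the submitters' processing notes, HISAT2 2.0.4, Cufflinks 2.1.1, Cuffdiff and mm10 were used; which tool did what, how reads were counted and whether strand was used is not stated there. Each deposited FPKM equals the deposited count over a length fixed per gene and the column total, within 0.1% for 100% of values, so FPKM carries no further scaling between libraries. Columns were matched to samples through the descriptions and groups came from the titles. Of deposited loci 79.7% were identical to GENCODE M21, used for strand and gene type.

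Deposited counts were fitted with edgeR 4.0.16 (R 4.3.3; filterByExpr, TMM, quasi-likelihood, 2 groups), and SEs follow from the fold change and F statistic. Alternatives used DESeq2 1.42.0 and limma 3.58.1. The fit was tested on simulated data. No 2 libraries agreed within sampling noise. Each library is taken as 1 mouse. PCR reads are not independent molecules, so depth covers counting error only.

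Members, windows and lists were chosen with earlier results of these data known. Named genes are the members, tested genes within 0.25 Mb, called genes within 1 Mb, the 5 nearest in pattern to Ecm1 and Adamtsl4, and up to 3 called genes a list; other genes were named after their values were seen. Where a symbol stood on 2 rows (Itgam), the row whose GENCODE name matched was used. For naive T cells 1 marker is not reported here.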

Additional observations from a re-analysis of the deposited data

Results flagged for a closer look

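Among 29 members and named neighbours with at least 10 counts over the GOF libraries, 1 had a GOF library far from the other 3. Plekho1 was at 19.5 CPM in GOF replicate 4 and at 20.7, 20.8 and 20.9 CPM in replicates 1 to 3. The gap is 0.838 of the group's range, above Dixon's 95% critical value for 4 samples. Chance flags about 1 in 20 groups, and all 4 values lie far below the WT values of 43.2 to 64.8 CPM.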

How the results depend on the processing

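The log2 fold change of Ecm1 lay between -5.51 and -5.10 over 17 alternatives and that of Tars2 between -1.40 and -1.10, always called. That of Adamtsl4 was -3.40 in limma on log2(FPKM + 1). Rprd2 lost its call without GOF replicates 1 and 3 (-0.71), and Ensa gained one in DESeq2 (-0.23). Prpf3 and Golph3l were called in none of their alternatives (lowest adjusted p 0.285 and 0.296). Against 3968 calls in all and 12 lower and 3 higher within 1 Mb, a mean FPKM of at least 5, which tests fewer genes, gave 2162, 7 and 1. Leaving out GOF replicates 1 and 3, which uses fewer samples, gave 2124, 7 and 0. A window of 0.25 Mb gave 4 lower and 1 higher, and 1 of 2 Mb gave 14 and 6. With no filter the median log2 fold change of all genes moved to 0.102. Leaving out 1 library gave 2989 to 3802 calls in all, 8 to 13 lower and 2 to 6 higher within 1 Mb, the 6 without WT replicate 2; the cause was not tested. With the replicate block there were 3196 calls in all and 9 lower and 4 higher within 1 Mb, and it changed no call of a member. Deviations from the group mean correlated at 0.03, 0.09 and -0.07 between same-numbered libraries, and at -0.15 to 0.11 between libraries of unlike number. The number thus marked no visible pairing. So few pairs cannot show whether samples shared a litter or a batch. Hormad1, with 1 count, was too low to test.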
